A study of Mus musculus with 4 samples.

Results

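The S100 family was examined in mouse breast cancer cells labelled as having or lacking Pak1, a p21-activated kinase. Its members here were 10 genes (S100a1, S100a3, S100a4, S100a6, S100a8, S100a9, S100a10, S100a11, S100a13 and S100a16), taken as every non-control probe whose name on the array was one of these symbols. They came to 13 of the 39429 probes and 10 of the 31896 genes by name. The tumours behind the cells had arisen in MMTV-Neu mice, whose Neu transgene (Her2, gene Erbb2) is driven by the promoter of mouse mammary tumour virus. Both groups carried that transgene. One group of 2 samples was labelled Pak1-/- and the other group of 2 was labelled Pak1+/+. All 4 cultures grew in low calcium medium with horse serum, were starved of serum for 3 h and were then given EGF for 15 min, so every level below is that of EGF-treated cells. Neither the age nor the strain background of the mice is given in the sources used here, and the 2 samples of a group came from different tumours. The study calls such cells cell lines, so a sample stands for 1 line and not for a whole tumour.

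S100 proteins are small calcium-binding proteins with a pair of EF-hand loops. Most act as dimers that open a binding face when calcium rises and then hold annexins, myosin or other partners inside the cell, and several are also released and act on receptors such as Tlr4 and Ager (RAGE) on other cells. S100a8 and S100a9 join as calprotectin, known mainly from neutrophils and also from epithelia under stress and from tumours, while S100a4, S100a6, S100a10 and S100a11 are common in motile and tumour cells.

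Total RNA was measured on a single-colour (Cy3) array with 60-base probes. The signal was well above background for 62.2% to 70.4% of probes per array, at a median spot intensity of 322 to 331 and a median local background of 39.0 to 42.0. The probe for Pak1 itself, at 12.21 and 12.25 in the arrays labelled Pak1-/- and 12.04 and 12.04 in those labelled Pak1+/+ (normalized log2 intensity), was not lower in the former. The log2 difference was 0.19 (SE 0.07, limma adjusted p = 0.070) and missed the threshold. Whether this probe lies in the deleted part is not given in the sources used here, so it does not check the labels, and every direction below goes by them. Erbb2 had a log2 difference of -0.31 (Pak1-/- minus Pak1+/+, SE 0.07, adjusted p = 0.020), a call that was lost in 3 of 10 alternatives (adjusted p up to 0.11). All 4 arrays shared 1 slide with the groups at different positions, so that slide position and genotype cannot be told apart.

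All 8 members from S100a1 to S100a9 lie in one stretch of chromosome 3, with probes that span 182 kb on mm9. The S100a11 and S100a10 probes lie 2.83 Mb from that of S100a9 and 38.4 kb from each other. The members share sequence, which bears on what a probe can tell apart. The letters TTCNAGGAG, which code for the end of the loop of the second EF-hand, stood in 4 of the 13 S100 probes and in 59 (0.15%) of all 39429 probes. They are in capitals in the probes below, given in the direction of the transcript at mm9 positions chr3:90315191-90315250 (minus strand, S100a1), chr3:90409734-90409793 (plus, S100a4), chr3:90418160-90418219 (plus, S100a6) and chr3:90473778-90473837 (plus, S100a8). The longest run of letters shared by probes of different members was 11 bases, between S100a4 and S100a6, so the bases around the capitals differ from gene to gene.
S100a1 probe: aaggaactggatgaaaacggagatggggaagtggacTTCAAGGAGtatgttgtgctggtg
S100a4 probe: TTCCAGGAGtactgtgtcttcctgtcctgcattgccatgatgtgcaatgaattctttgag
S100a6 probe: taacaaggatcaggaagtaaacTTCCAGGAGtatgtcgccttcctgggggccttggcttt
S100a8 probe: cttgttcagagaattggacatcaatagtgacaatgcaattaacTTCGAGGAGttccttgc

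Of the 10 S100 genes, 3 were lower in the arrays labelled Pak1-/- (S100a9, S100a8 and S100a16), 1 was higher (S100a13) and 6 did not pass the threshold, an adjusted p of 0.05 in limma's moderated test over all 27229 probes kept. The members' count of 4 of 10 stands beside 51% of the 22005 genes tested by their brightest probe, of which 22.8% were higher and 28.2% lower. The excess of lower calls depended on the setting, as over all probes cyclic loess gave 7324 higher and 6647 lower and a 2-fold requirement 1889 and 1524. The share of S100 genes called was therefore near that of all genes. The size of the change set 2 members apart from the others: S100a8 and S100a9 were past 2-fold, as were 12.6% of all genes, and the other members stayed within 1.37-fold in either direction. The median log2 difference of the 10 genes (Pak1-/- minus Pak1+/+) was -0.08, against -0.05 over all genes tested. For 8 of the 10 members and 11 of the 13 probes the groups had no overlap, beside 77.6% of all genes. Every S100 probe was well above background on all 4 arrays and none was saturated. With 2 samples a group, each p-value rests on the spread between these samples and on that of all probes kept, which the moderated test borrows. A lower level in RNA from a whole culture cannot tell fewer cells making a transcript from less of it per cell.

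**Figure D1:**
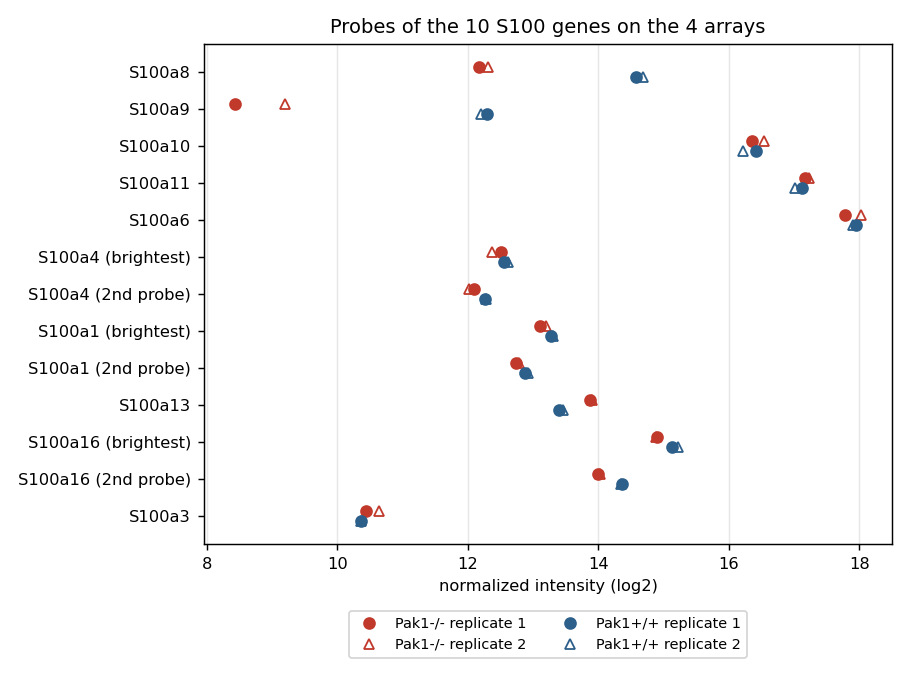
Normalized log2 intensity (horizontal axis) of the 13 probes of the 10 S100 genes on each of the 4 arrays, red for the arrays labelled Pak1-/- and blue for those labelled Pak1+/+, circles for replicate 1 and triangles for replicate 2. The groups stand far apart for S100a8 (12.18 and 12.32 against 14.58 and 14.68) and S100a9 (8.43 and 9.19 against 12.30 and 12.21), and lie close to each other or overlap for the rest; levels of different probes are not comparable.

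S100a8 and S100a9, the subunits of calprotectin, were both much lower in the arrays labelled Pak1-/-. S100a8 (probe A_51_P256827) gave normalized log2 intensities of 12.18 and 12.32 in the arrays labelled Pak1-/- and of 14.58 and 14.68 in those labelled Pak1+/+. The background-subtracted signals behind these were 4131 and 4778 against 23790 and 23986, so both arrays of the first group lay well below both of the second and the replicates of a group stood close together. The log2 difference was -2.38 (SE 0.09, 95% interval -2.61 to -2.15, adjusted p = 0.000161), which is 5.21-fold.

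S100a9 (probe A_55_P1998471, mm9 chr3:90496573-90496632, minus strand) gave 8.43 and 9.19 in the arrays labelled Pak1-/- and 12.30 and 12.21 in those labelled Pak1+/+. The background-subtracted signals were 243 and 469 against 4731 and 4168. The 2 arrays labelled Pak1-/- thus differed more from each other than any other S100 replicates did, yet both lay far below the other group. The log2 difference was -3.44 (SE 0.26, 95% interval -4.13 to -2.75, adjusted p = 0.000921), which is 10.8-fold. Left out in turn, the arrays moved this value between -3.82 and -3.06. Of all genes tested, 172 (0.782%) were lower by at least as much as S100a8 and 60 (0.273%) by at least as much as S100a9.

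**Figure D2:**
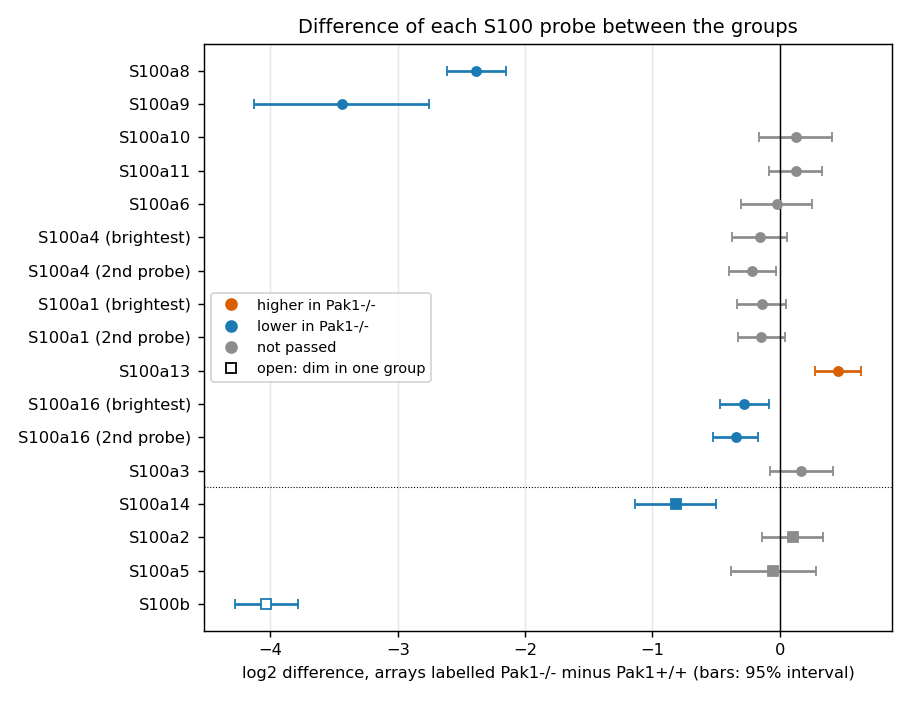
Log2 difference between the arrays labelled Pak1-/- and those labelled Pak1+/+ (horizontal axis) for each S100 probe, with its 95% interval from limma, coloured by the call at an adjusted p of 0.05; squares under the dotted line are S100 genes outside the 10 members. S100a9 (-3.44) and S100a8 (-2.38) lie far to the left, all other members lie within 0.5 of 0, and the open square of S100b marks a gene that was not well above background in the arrays labelled Pak1-/-, where its value is a bound.

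The promoters of these genes are shown because their transcripts fell together. Both windows are from RefSeq on GRCm38.p6 and run from 250 bases before the annotated start to 25 bases past it, in the direction of the gene. That of S100a8 is chr3:90668821-90669095 (plus strand) and that of S100a9 is chr3:90695697-90695971 (minus strand). Capitals mark matches to TATAAA, the letters of a TATA box, and to TTGCNNAA, the core letters bound by C/EBP factors, which control many myeloid and epithelial defence genes.
S100a8 promoter: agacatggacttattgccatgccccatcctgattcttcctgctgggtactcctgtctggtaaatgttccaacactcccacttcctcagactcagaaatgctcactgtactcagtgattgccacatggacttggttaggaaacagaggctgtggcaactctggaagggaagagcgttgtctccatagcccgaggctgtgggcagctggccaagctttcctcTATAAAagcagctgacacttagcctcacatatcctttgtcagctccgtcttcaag
S100a9 promoter: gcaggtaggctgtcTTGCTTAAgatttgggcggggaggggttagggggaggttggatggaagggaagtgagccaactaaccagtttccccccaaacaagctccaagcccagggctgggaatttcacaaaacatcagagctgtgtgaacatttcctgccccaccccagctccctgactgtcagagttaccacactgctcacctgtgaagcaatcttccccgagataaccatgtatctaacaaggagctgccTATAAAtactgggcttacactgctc

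TATAAA began 30 bases before the start of S100a8 and right at the annotated start of S100a9. On either strand it was found in 13% of the 32851 promoter windows of this length and in windows of 4 of the 9 members listed, the others being S100a4 (31 bases before the start) and S100a3 (52 bases before, in 1 of its 4 windows). S100a4 and S100a3 did not pass the threshold, so these letters were not particular to the members that were lower. TTGCNNAA occurred among the members only in S100a9, as TTGCTTAA 236 bases before the start, against 10.2% of all windows. The AP-1 letters TGANTCA (7.35% of windows) stood in S100a11, 136 and 38 bases before the start, and in 1 of the 2 windows of S100a16. The NF-kB motif (GGG, 2 free bases, TT, 1 free base and CC, in 4.48% of windows) stood in the other window of S100a16, and the STAT letters TTCNNNGAA (7.71%) in none of the members. The windows of S100a1, S100a6 and S100a13 held none of these motifs, and S100a10 had no entry. A match of letters is a description of the window and not a site in use.

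Because calprotectin is abundant in neutrophils, the markers of those cells were read beside it. Of 10 neutrophil markers, 6 were tested and 1 passed: Ly6g, a neutrophil surface protein, gave 6.81 and 7.01 in the arrays labelled Pak1-/- and 7.92 and 8.10 in those labelled Pak1+/+ (log2 difference -1.10, SE 0.11, adjusted p = 0.0018). Its signal was well above background on 1 of 2 arrays in the first group and on both in the second. Over 9 other scalings and left-out arrays its log2 difference reached -2.26, and over 10 such alternatives 0 to 1 of the markers were higher and 0 to 2 lower. The granule genes Ngp, Mmp8 and Retnlg were dim (not well above background) on every array, and Mpo on all but 1. Cxcr2, a chemokine receptor of neutrophils, was well above background in the arrays labelled Pak1+/+ alone and did not pass (a ratio of at least 1.42-fold, adjusted p = 0.10, with a call in 1 of 10 alternatives). Ltf, Csf3r, Elane and Camp were well above background on all 4 arrays and did not pass, and Ltf is also a product of mammary epithelium. The summed background-subtracted signal of the list was 420616 and 489254 against 591504 and 567287, most of it bright probes such as Ltf. The part of such cells in the fall of S100a8 and S100a9 was not tested.

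Among 12 leukocyte markers 8 were tested, among them Cd52, which passed the filter on dim probes through the arrays labelled Pak1-/- alone. Of the 8, 4 were lower (Adgre1, Coro1a, Ptprc and Fcer1g). The other 4 did not pass, at differences above 0 (Cd52 at least 1.47-fold, Itgam 0.49, Cd3e 0.25 and Csf1r 0.12). This share called was near the 51% of all genes, and over 10 other scalings and left-out arrays 3 to 4 were lower and 0 to 1 higher. Fcer1g lost its call in 5 of them. The median was -0.12 (-0.18 to -0.04). Their summed signal was 64300 and 51555 against 48878 and 41874. Of the 12, 7 were well above background on all 4 arrays, among them Itgam at 16.07 and 15.51 against 15.39 and 15.20, and 2 were so on none (Laptm5 and Tyrobp). Ptprc, the common leukocyte antigen, gave 7.15 and 7.14 against 7.59 and 7.60, close to the floor of the array. Epithelial markers were bright: Krt8, Krt18, Epcam, Cldn3 and Cldn7 were well above background on all 4 arrays. So were Cdh1 and Krt7, which had the largest luminal differences (1.19, adjusted p = 0.0012, and -1.10, adjusted p = 0.00056). Of 8 luminal markers 3 were higher and 1 lower, beside the 22.8% higher and 28.2% lower of all genes. The luminal balance turned with scaling to the 75th percentile (2 higher and 3 lower from normexp values, 1 higher and 2 lower from the processed signal). Of 7 basal epithelial markers, all 5 that were tested rose in the arrays labelled Pak1-/- (3 to 5 over the same alternatives), with Krt17 at 14.09 and 13.64 against 8.85 and 9.05 and Krt14 at 15.93 and 15.89 against 13.05 and 13.10. Their log2 differences were 4.92 (SE 0.18, adjusted p = 0.00015) and 2.83 (SE 0.07, adjusted p = 7.7e-05). Acta2 (1.69), Krt5 (0.50) and Trp63 (0.43) rose less, and over the alternatives Krt5 went down to 0.38 and Trp63 to 0.35. Of 10 fibroblast markers 5 were tested and 2 were higher, Col1a1 (1.12) and Postn, beside the 22.8% higher of all genes. Col1a2 (0.03), Pdgfra (-0.16) and Fap (0.24, and -1.16 to 1.64 over the alternatives) did not pass. Col3a1, Dcn, Lum and Pdgfrb were dim on every array. Postn gave 10.84 and 9.66 in the arrays labelled Pak1-/-, a wide spread, against 6.31 and 6.22 where it was not well above background, or at least 10.4-fold. It passed the filter on dim probes through the arrays labelled Pak1-/- alone, which favours a difference. The higher basal markers and the 2 higher fibroblast markers ran alongside the S100 differences, and their part in them was not tested.

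The S100 proteins that hold annexins had bright probes with small differences. S100a10 (A_51_P342871, mm9 chr3:93368437-93368496), which with annexin A2 brings plasminogen activation and channels to the cell surface, gave 16.36 and 16.54 against 16.42 and 16.22. These ranges overlapped, and the difference of 0.13 (SE 0.11, 95% interval -0.16 to 0.41) did not pass (adjusted p = 0.38). S100a11 (A_55_P2065991, mm9 chr3:93330022-93330081), a partner of annexins A1 and A2 in membrane repair, gave 17.17 and 17.23 against 17.13 and 17.02. The groups of S100a11 did not overlap, yet its difference of 0.12 (SE 0.08, 95% interval -0.08 to 0.33) did not pass (adjusted p = 0.24). S100a6, calcyclin, which binds annexins and the ubiquitin ligase adaptor Cacybp, gave 17.78 and 18.03 against 17.95 and 17.91. Its spread between the arrays labelled Pak1-/- enclosed both arrays of the other group, at a difference of -0.02 (SE 0.11, 95% interval -0.30 to 0.25, adjusted p = 0.87). With each array scaled to its 75th percentile in place of quantile normalization, S100a10 and S100a11 turned negative and S100a6 went to -0.33. The sign of S100a6 turned positive without Pak1-/- replicate 1 (0.10). The S100a6 spots had mean signals of 186998 to 284492, below the saturation value of at least 561427.

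S100a4, which binds non-muscle myosin and is known from metastatic tumour cells, had 2 probes. The brightest (A_55_P1983448, mm9 chr3:90409908-90409967) gave 12.50 and 12.37 against 12.56 and 12.62, a difference of -0.16 (SE 0.08, 95% interval -0.37 to 0.06, adjusted p = 0.18). The other (A_55_P1983450) gave 12.09 and 12.02 against 12.27 and 12.28, a difference of -0.22 (SE 0.07, adjusted p = 0.056). Both probes were somewhat lower in each array labelled Pak1-/- without passing the threshold, and the interval of the brighter one leaves room for a fall of up to 0.37. S100a1, best known from heart muscle, likewise had 2 probes (A_55_P1979645 and, at mm9 chr3:90314959-90315018, A_55_P1979650). They gave 13.11 and 13.20 against 13.28 and 13.30, and 12.73 and 12.79 against 12.88 and 12.93. Each differed by -0.14 (SE 0.07, adjusted p = 0.17 and 0.15), so the probes of this gene moved alike and neither passed.

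S100a13 was the only member that rose. This protein is needed for the release of Fgf1, a growth factor, and Il1a, a cytokine, which leave the cell without a signal peptide. Its probe (A_55_P1991351, mm9 chr3:90328442-90328501) gave 13.88 and 13.90 in the arrays labelled Pak1-/- and 13.40 and 13.46 in those labelled Pak1+/+. The replicates agreed closely and the groups stood apart, with a log2 difference of 0.46 (SE 0.07, 95% interval 0.28 to 0.64, adjusted p = 0.0059), or 1.37-fold. S100a13 and S100a1 lie head to head, and their 275-base promoter windows overlap (chr3:90514185-90514459 and chr3:90514306-90514580 on GRCm38.p6). The brightest S100a1 probe had a difference of the opposite sign (-0.14) and did not pass. Its cargoes were read beside it. Fgf1 gave 10.24 and 10.10 against 7.87 and 7.82 by its brightest probe (log2 difference 2.32, SE 0.08, adjusted p = 0.00015), while its other probe gave 7.25 and 7.07 against 7.29 and 6.89 and did not pass (adjusted p = 0.73). That probe was well above background on 3 of the 4 arrays, so the probes of Fgf1 disagreed. Il1a was at least 1.88-fold higher (adjusted p = 0.00059), at 7.66 and 7.90 where it was well above background against 6.12 and 6.15 where it was not. It passed the filter on dim probes through the arrays labelled Pak1-/- alone, which favours a difference.

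S100a16, a widely expressed member with 1 working calcium site, was modestly lower by both of its probes. The brightest (A_66_P114627, mm9 chr3:90346875-90346934) gave 14.91 and 14.89 against 15.13 and 15.22, a log2 difference of -0.28 (SE 0.07, 95% interval -0.47 to -0.08, adjusted p = 0.032), or 1.21-fold. The other (A_55_P2148912, mm9 chr3:90346529-90346588) gave 13.99 and 14.03 against 14.37 and 14.35, a difference of -0.35 (SE 0.07, adjusted p = 0.013). The probes moved the same way and in neither did the groups overlap. The call of the brightest probe was not firm: it was lost when any 1 array was left out (log2 difference -0.33 to -0.23, adjusted p = 0.080 to 0.17) and with cyclic loess normalization (-0.16, adjusted p = 0.13). S100a3, a cysteine-rich member best known from the hair cuticle, gave 10.44 and 10.64 against 10.36 and 10.37 (A_51_P468456, mm9 chr3:90406396-90406455). The difference of 0.17 (SE 0.09, 95% interval -0.08 to 0.42) did not pass (adjusted p = 0.19).

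**Figure D3:**
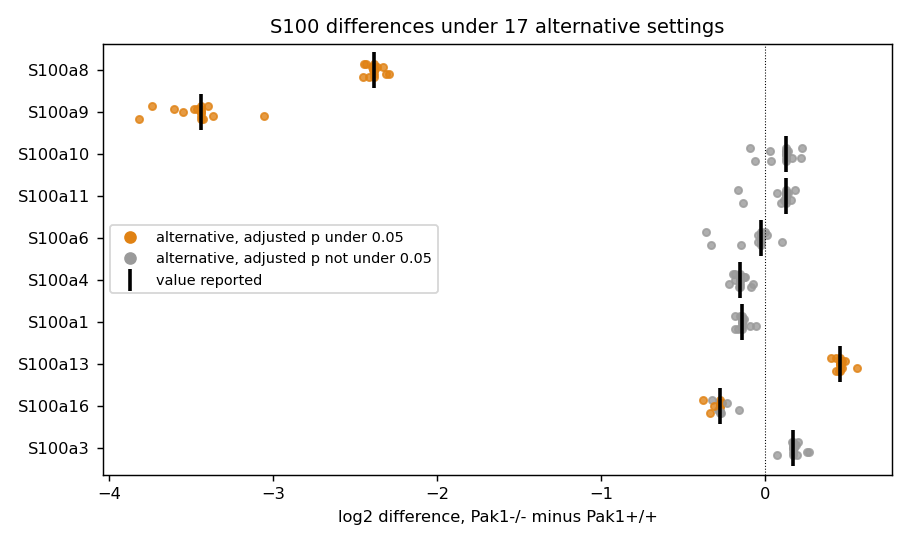
Log2 difference of each S100 gene (horizontal axis, Pak1-/- minus Pak1+/+) under 17 alternative settings (dots, orange where the adjusted p was under 0.05) and as reported (black bar). The dots of S100a8 (-2.45 to -2.29) and S100a9 (-3.82 to -3.06) are all orange and far from 0, those of S100a16 are part orange and part grey, and those of S100a10, S100a11 and S100a6 fall on both sides of 0.

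Outside the 10 members, the array named probes for 7 of 8 other S100 genes. Of these 4 were tested and 2 were lower, a share called near the 51% of all genes. S100b, known from glia, melanocytes and Schwann cells, gave 10.75 and 10.88 in the arrays labelled Pak1+/+, while at 6.71 and 6.86 it was not well above background in those labelled Pak1-/-. It was thus at least 16.4-fold lower in the latter (adjusted p = 7.1e-05). It passed the filter on dim probes through the arrays labelled Pak1+/+ alone, a choice that itself favours a difference. Of 5 Schwann cell markers, 2 were lower, among them Pmp22 (-1.88), beside the 28.2% lower of all genes. The other 3 did not pass, among them Sox10 at 16.59 and 16.68 against 16.82 and 16.65. The summed signal of the Schwann cell list was 88958 and 106334 against 135327 and 119269. The part of such cells in the fall of S100b was not tested. S100a14, an epithelial member that lies between S100a13 and S100a16, gave 10.07 and 10.28 against 11.10 and 10.88, a difference of -0.82 (SE 0.12, adjusted p = 0.0054). S100a2 and S100a5 did not pass (0.10 and -0.05), and S100a7a, S100g and S100z were too dim to test.

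Of 20 intracellular partners of S100 proteins 18 were tested, 11 were higher in the arrays labelled Pak1-/-, 3 lower and 4 did not pass, beside the 22.8% higher and 28.2% lower of all genes. The 11 include Il1a and Dlc1, which entered through the group where they were bright. The list had a median log2 difference of 0.62 (0.47 to 0.73 over 10 other scalings and left-out arrays) against -0.05 over all genes. Beside Fgf1, given above, 2 annexins were past 2-fold. Anxa6 gave 17.73 and 17.42 against 15.88 and 16.03, a difference of 1.62 (SE 0.13, adjusted p = 0.0011). Anxa5 gave 17.17 and 17.10 against 15.47 and 15.66, a difference of 1.57 (SE 0.09, adjusted p = 0.00052). Anxa2, the main partner of S100a10, did not pass (0.15, adjusted p = 0.13) and changed sign in 2 of 10 alternatives, while Anxa1, with 1 saturated array, was higher by 0.67 (adjusted p = 0.0018) and by 0.66 at a dimmer, unsaturated probe.

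The myosin heavy chains Myh9, Myh10 and Myh14, targets of S100a4 and its relatives, were higher by 0.93, 0.92 and 0.57 (SE 0.16, 0.07 and 0.07, adjusted p = 0.0081, 0.0010 and 0.0027). Dlc1, a GTPase-activating protein bound by S100a10, was at least 3.30-fold higher (adjusted p = 0.00071), not being well above background in the arrays labelled Pak1+/+, and like Il1a it passed the filter through the other group alone. The lower partners were Ppfibp1, the liprin bound by S100a4 (-1.02, SE 0.07, adjusted p = 0.00063), the calcium channel Trpv6 (-0.98, SE 0.11, adjusted p = 0.0027) and Cacybp (-0.53, SE 0.08, adjusted p = 0.0052). Anxa6 and Anxa5, as well as all 3 myosins, thus moved while S100a4, S100a6, S100a10 and S100a11 did not pass. Not every partner moved: Anxa2 did not pass, and neither did Ahnak at any of its probes (0.04 at the brightest, adjusted p = 0.80).

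Of 9 receptors for released S100 proteins, all tested, 4 were higher, 1 was lower and 4 did not pass, a share called near the 51% of all genes, with a median of 0.21 (0.15 to 0.37). Tlr4 and Ly96, the parts of the receptor complex that answers calprotectin, gave 11.34 and 11.53 against 10.56 and 10.54, and 11.75 and 11.91 against 10.95 and 10.73. They were higher by 0.88 (SE 0.09, adjusted p = 0.0020) and 0.99 (SE 0.11, adjusted p = 0.0024). Cd14, their co-receptor, moved the other way, from 17.35 and 17.25 in the arrays labelled Pak1+/+ to 15.50 and 15.72 in those labelled Pak1-/- (-1.70, SE 0.10, adjusted p = 0.000545). Alcam was higher by 0.66. Nptn was higher by 0.44 at its brightest probe, a call lost in 2 of 10 alternatives, and its other probe did not pass (0.12, adjusted p = 0.29). Ager and Bsg, receptors of several S100 proteins, did not pass (0.21 and -0.17).

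**Figure D4:**
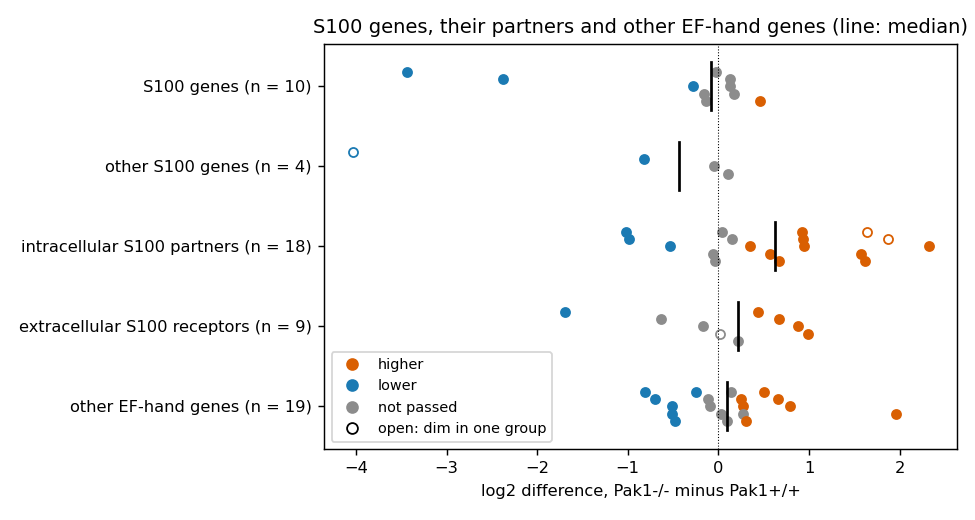
Log2 difference (horizontal axis, Pak1-/- minus Pak1+/+) of every tested gene in the S100 family, its partner and receptor lists and other EF-hand genes, coloured by the call at an adjusted p of 0.05; vertical bars are list medians (-0.08 for the 10 S100 genes, 0.62 for intracellular partners, 0.21 for receptors, 0.10 for other EF-hand genes) and open circles are genes not well above background in one group. The S100 genes cluster near 0 apart from S100a8 and S100a9, while most intracellular partners lie to the right of 0.

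Other EF-hand genes were called in both directions. Of 22 genes 19 were tested, 7 were higher, 6 were lower and 6 did not pass, beside the 22.8% higher and 28.2% lower of all genes. The median was 0.10 (-0.05 to 0.19 over 10 other scalings and left-out arrays). The counts moved to 4 to 8 higher and 4 to 5 lower over these alternatives. There were 4 higher without Pak1-/- replicate 2 or either array labelled Pak1+/+, and with scaling to the 75th percentile, where 5 were lower. Ncs1, a neuronal calcium sensor, was the one past 2-fold by its brightest probe, at 11.40 and 11.51 against 9.45 and 9.52 (1.96, SE 0.08, adjusted p = 0.00020).

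Of the tested neighbours of the S100 genes on chromosome 3, none was lower by as much as S100a8 or S100a9. The RefSeq table lists 91 other genes between S100a1 and S100a10, many of them keratinocyte genes of the epidermal differentiation complex. Of the 33 that could be tested, 9 were higher, 4 lower and 20 did not pass, with a median of -0.05, beside the 22.8% higher and 28.2% lower of all genes. The lower ones were S100a14, Lor, Sprr2a2 and Crct1 (-0.82, -0.44, -0.30 and -1.54), all at smaller differences than S100a8. Pglyrp4, the nearest neighbour of S100a9 with a probe, was well above background on 1 array alone and was not tested. It gave 6.30 and 6.24 in the arrays labelled Pak1-/- and 8.18 and 7.08 in those labelled Pak1+/+. The late cornified envelope genes are close copies whose probes can share signal. Of 15 that were tested, 6 were higher (Lce1b, Lce1c, Lce1f, Lce1g, Lce1h and Lce1i, by 0.66 to 1.53) and 9 did not pass. On the flanks, 8 of 20 genes were tested, 3 were higher and 1 lower, and Slc27a3, a fatty acid transporter, was higher by 3.50 (SE 0.08, adjusted p = 7.1e-05). Among 16 listed genes of the epidermal differentiation complex, 7 were tested, with 1 higher (Tchh) and 1 lower (Lor).

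**Figure D5:**
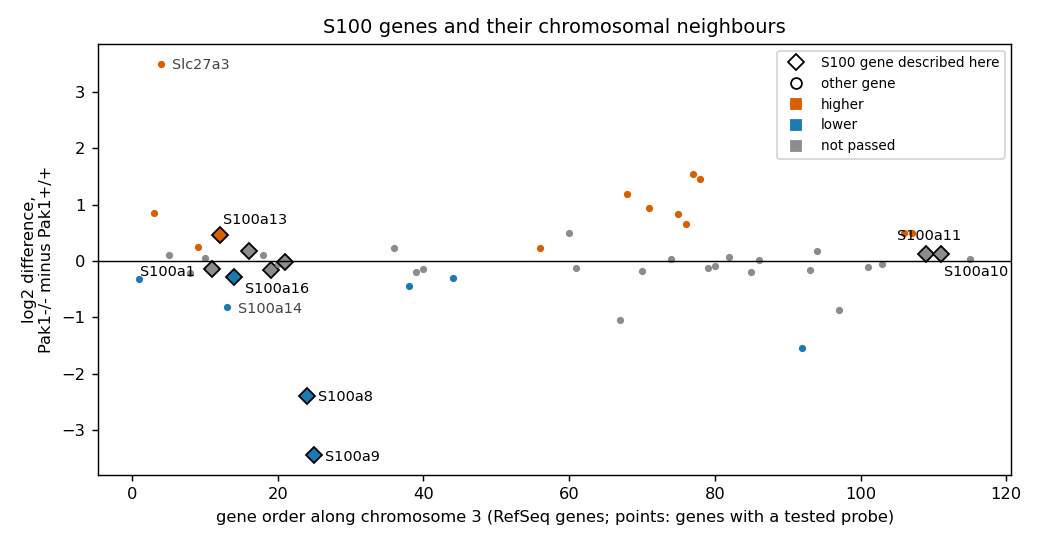
Log2 difference (vertical axis, Pak1-/- minus Pak1+/+) of the S100 genes (diamonds) and neighbouring genes (dots) with a tested probe, by their order along chromosome 3 in the RefSeq table (horizontal axis), coloured by call. S100a8 (-2.38) and S100a9 (-3.44) stand side by side at the bottom, with Crct1 (-1.54) the next lowest among the tested genes of the stretch.

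The genes whose 4 values ran most like those of S100a9 were named by the Euclidean distance between values centred on each gene's mean, over 4 arrays. They were LOC634585 (distance 0.26), Etv1 (0.28), Evc (0.37), Klra15 (0.37) and Klra22 (0.37). Etv1, an ETS transcription factor, gave 12.83 and 13.21 in the arrays labelled Pak1-/- and 16.48 and 16.30 in those labelled Pak1+/+. Like S100a9, it was lowest on replicate 1 of the first group, a likeness that the choice by distance itself favours. Klra15 and Klra22 encode natural killer cell receptors of one family of close copies, whose probes can share signal. Evc was not well above background in the arrays labelled Pak1-/-. It thus passed the filter through the other group alone, and its distance rests in part on dim values. With 4 arrays in a pair of groups, likeness mostly repeats the group difference.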

How the data were processed

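The deposited scanner files hold, per their headers, spot intensities on a linear scale from Agilent Feature Extraction 9.5.3.1 (mean, local background and background-subtracted intensity) and other columns of flags for saturated, well above background and outlier spots, without normalization between arrays. A table of log2 values was deposited by the authors as well, described in the methods as normexp corrected and quantile normalized, with values in 24008 of 39485 rows. It was used as an alternative.

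Following the steps of those methods, background was corrected with normexp (offset 50, set here) in limma 3.58.1 (R 4.3.3), control spots were left out, and log2 values were quantile normalized. Outlier spots were set aside and the 43020 spots averaged into 39429 probes. A probe was kept if its signal was well above background on 2 or more arrays (27229 probes). Groups, taken from the labels, were compared with lmFit and eBayes (two-sided, genotype only), and p-values were adjusted over all probes kept by the Benjamini-Hochberg method (threshold 0.05). Residual degrees of freedom were 2, to which the prior added 2.62. An exact permutation test of 2 against 2 cannot go below p = 0.333 and was not used. Precision is limited by the number of arrays, and the offset understates changes of dim probes. The fit was tested on simulated data.

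Each gene is given by its brightest probe over the 4 arrays. Where neither array of a group was well above background, the ratio is a bound, written as at least N-fold. It sets the bright group's mean against a floor, which on each dim array was the lowest normalized value among probes well above background, or the probe's own value where that was larger. Probes were named through accessions in a RefSeq table of GRCm38.p6, which also gave gene order and promoters. Probe positions are those of the files, on mm9. Named genes were all S100 members, genes of the partner, receptor, EF-hand and other S100 lists past the threshold with a log2 difference of at least 1 either way, and the 5 genes closest to S100a9. Others of the lists and neighbours were named after their values were seen. The members and lists were chosen with earlier results of these data known. Alternatives covered offset, normalization, source of values, filters, design, threshold, left-out arrays and the mean over a gene's probes. Some genes of the lists are counted in them but are not reported singly here.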

Additional observations from a re-analysis of the deposited data

How the results depend on the processing

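S100a8 (-2.45 to -2.29) and S100a9 (-3.82 to -3.06) kept their direction and call under all 17 alternatives. S100a13 kept both at 0.40 to 0.56, except for the call under a 2-fold requirement, where 0 S100 genes were called higher. S100a16 lost its call under 9 of the 17. These were cyclic loess (-0.16), no filter on dim probes (adjusted p = 0.057), the replicate block (adjusted p = 0.062), an adjusted p of 0.01, the 2-fold requirement and each left-out array, so that 2 S100 genes were called lower and 1 higher in each fit without an array.

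Directions of genes that did not pass reversed as follows. S100a10 went to -0.062 and S100a11 to -0.14 with normexp values scaled to the 75th percentile, and to -0.10 and -0.16 with the processed signal so scaled. S100a6 went to 0.012 in the authors' table and to 0.10 without Pak1-/- replicate 1 (-0.15 to 0.10 over the left-out arrays), and moved most, with no change of sign, to -0.33 and -0.36 under the 75th-percentile scalings. The cause was not tested.

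Over all probes, 14132 calls became 8878 at an adjusted p of 0.01, 3413 with a 2-fold requirement, 10307 to 12164 without 1 array and 13211 with the replicate block. The replicate numbers did not pair the samples (r of replicate differences across probes -0.03), and apart from S100a16 the block changed no S100 call. The median of all tested probes stayed between -0.08 and 0.00 under every setting.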
